A study of Mus musculus with 8 samples.

Results

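Imprinted genes were followed in whole back skin of mice labelled as homozygous for a Flg knockout allele (ko/ko, 4 libraries) or as homozygous wild type (wt/wt, 4 libraries), all 8 weeks old. The set was a list of 51 genes of mouse imprinted domains, taken by symbol from the 49671 genes of the table. All 51 had a row, and 47 had enough reads to be among the 19099 genes tested. Flg encodes profilaggrin, the precursor of the barrier protein filaggrin. The sources used here do not say how the knockout allele was made, nor the strain or sex of the mice. Whether every library is from its own mouse is not stated in the labels, so p-values measure the spread between these samples. Both genotypes were whole shaved skin, so each value averages epidermis, hair follicles, dermis, fat and muscle, and fewer cells of a type cannot be told apart from less RNA per cell.

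An imprinted gene is transcribed mainly from the copy inherited from 1 parent. The choice is written in the germ line as DNA methylation at a control region, which acts on a cluster of neighbouring genes. Many of these genes regulate fetal and juvenile growth, and several fall in abundance after birth as growth slows. The counts here sum both parental copies, so they give the total level of a gene and not its allelic use.

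Library totals lay between 18483242 and 38545957 counts. Levels are given as CPM (read counts scaled to a common library size after TMM adjustment) for replicates 1 to 4 of each genotype, or as mean ± SD with n = 4. The labels give no replicate numbers. Those used here follow sample order within a genotype, and equal numbers were not taken as pairs. Each log2 fold change compares knockout with wild type and is negative where knockout is lower, with its standard error (SE). Called genes are those with an edgeR quasi-likelihood adjusted p below 0.05, adjusted over all genes tested. Flg was lower in all knockout libraries, with 22.3 to 27.0 CPM against 46.5 to 66.9 CPM in wild type (exact permutation p = 0.0286, two-sided, the smallest that 4 against 4 libraries allow). The closest replicates were knockout 2 and 4, at a chi-square of 5.8 per degree of freedom, so no pair was within counting noise. Markers of keratinocytes, fibroblasts, fat, muscle and the other cell types listed for skin were all detected, with none at 0.

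Imprinted genes called in knockout skin were all lower. They were Peg3, Zim1, H19 and Cdkn1c, 4 of 47 tested members, where 0.702% of all genes tested were called lower. Members were chosen with earlier results of these data known, so their share cannot be read as a test against all genes. In this edgeR fit 0 members were called higher, where 0.712% of all genes were. At an unadjusted p under 0.05, 4 of 47 members were higher and 10 were lower, where 8.64% and 10.9% of all genes were. DESeq2 on the same 8 libraries called 6 members, with Dlk1 (lower) and Slc22a3 (higher) added, where 6.0% of all genes were called. The share called in either direction was 1.41% over all genes. Members lay below 0 in 31 cases and above 0 in 16, with a median log2 fold change of -0.10, against a median of -0.02 over all genes tested. All 4 called genes lie on chromosome 7, which holds 16 of the tested members. Zim1, H19 and Cdkn1c are expressed from the maternal copy and Peg3 from the paternal copy.

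**Figure D1:**
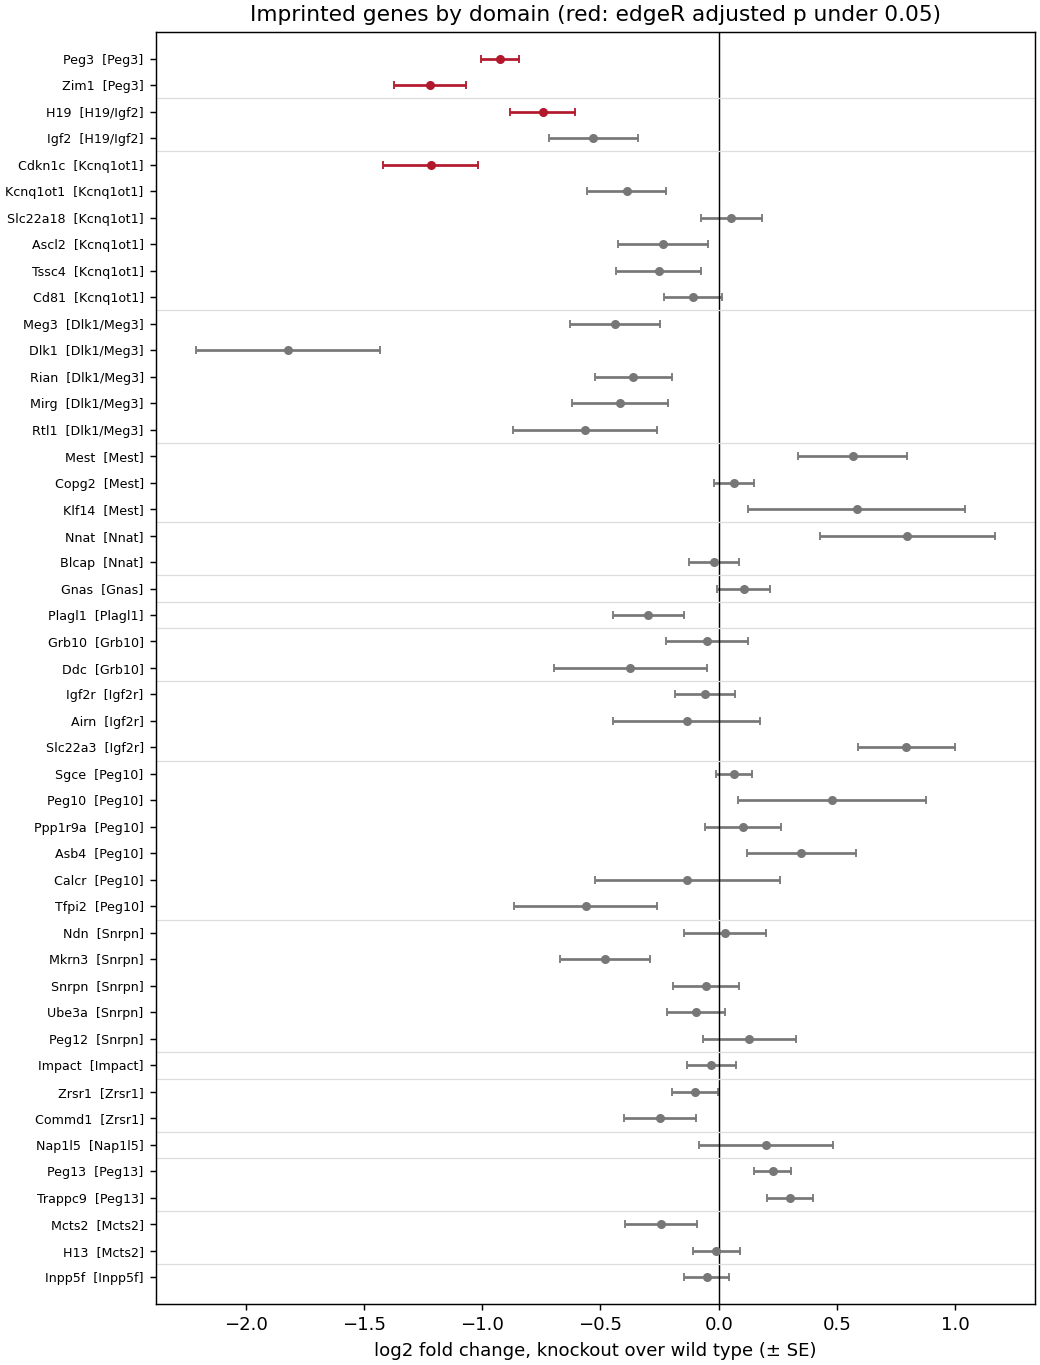
Log2 fold change of knockout over wild type (x axis) with SE bars for the 47 tested imprinted genes, ordered by domain (in brackets on the y axis). The 4 called genes, in red, all lie to the left of 0, and Dlk1, uncalled at -1.82, lies farthest to the left.

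The promoter windows of Peg3 and Zim1 are shown because both genes of this domain fell and because Peg3 and Usp29 start back to back. The windows are RefSeq sequence of GRCm38.p6, from 250 bases before to 50 after the start, 5′ to 3′ on the gene's strand, with CG dinucleotides in capitals. The Peg3 window lies at chr7:6730370-6730669 on the minus strand and the Zim1 window at chr7:6696383-6696682 on the minus strand.
Peg3: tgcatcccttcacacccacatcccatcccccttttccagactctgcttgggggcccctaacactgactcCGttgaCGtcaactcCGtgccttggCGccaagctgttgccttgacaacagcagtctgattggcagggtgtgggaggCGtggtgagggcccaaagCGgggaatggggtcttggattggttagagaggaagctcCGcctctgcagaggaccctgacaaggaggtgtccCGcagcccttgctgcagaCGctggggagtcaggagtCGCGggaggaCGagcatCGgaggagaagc
Zim1: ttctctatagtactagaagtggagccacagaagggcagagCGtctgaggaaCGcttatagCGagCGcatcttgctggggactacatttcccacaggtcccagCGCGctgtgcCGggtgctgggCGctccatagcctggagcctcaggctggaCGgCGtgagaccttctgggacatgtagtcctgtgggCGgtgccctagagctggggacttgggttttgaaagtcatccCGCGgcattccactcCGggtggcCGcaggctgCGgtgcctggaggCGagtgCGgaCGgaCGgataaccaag
The Usp29 window, at chr7:6730333-6730632 on the plus strand, shared 263 of its 300 bases with that of Peg3. The Peg3 window held 13 CG dinucleotides, the Usp29 window 17 and the Zim1 window 20, against a median of 7 over the 32851 promoter windows in the RefSeq table. A window was found for 41 members, with 61 windows in all and a median of 13. The letters TGCCGC, the site that the imprint-keeping factor ZFP57 reads when methylated, were sought on both strands, as were the letters GGGCGG, the box bound by SP1, and a match to one can overlap a match to the other. TGCCGC was present in the Zim1 window from base 231 and absent from those of Peg3, Usp29 and Dlk1. It was in 14 of the 61 member windows (23.0%) and in 11.6% of all windows. GGGCGG started at base 186 of the Zim1 window, clear of the other match, and was in 45.9% of member windows and 35.7% of all. Zfp264, H19, Cdkn1c, Rtl1, Klf14, Sgce, Peg10, Impact, Peg13 and Trappc9 were not matched.

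In the Peg3 domain, both tested genes fell. Peg3 encodes a large zinc finger protein that is made from the paternal copy and is known for its part in growth and maternal care. Its gene (ENSMUSG00000002265) spans chromosome 7, positions 6703892 to 6730431 (mm10, minus strand). Peg3 stood at 117, 111, 102 and 109.6 CPM in wild type and at 63.9, 56.3, 52.7 and 58.6 CPM in knockout. The groups did not overlap, and the lowest wild-type library lay well above the highest knockout library. The mean fell from 109.9 ± 6.31 to 57.9 ± 4.72 CPM (SD, n = 4), to 52.7% of wild type, a log2 fold change of -0.92 ± 0.08 (SE, edgeR adjusted p = 0.00143). Peg3 was called in all 8 fits that left out a library and not with an adipocyte marker covariate (-0.91, adjusted p = 0.0826).

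Zim1 is the maternally expressed zinc finger gene beside Peg3 (ENSMUSG00000002266, chromosome 7, positions 6671269 to 6696450, minus strand). It stood at 14.1, 9.09, 14.0 and 13.9 CPM in wild type and at 5.76, 5.14, 5.37 and 5.61 CPM in knockout. Wild-type replicate 2 was the low library of its group and still lay above every knockout library. The mean fell from 12.8 ± 2.45 to 5.47 ± 0.274 CPM (SD, n = 4), a log2 fold change of -1.22 ± 0.15 (SE, edgeR adjusted p = 0.0106). The call ended without knockout replicate 2 (adjusted p = 0.0545) or 4 (0.0564). The other genes of the domain were too low to test. Usp29, a deubiquitinase gene that shares the Peg3 promoter region on the opposite strand, had between 1 and 18 reads per library. Zfp264, a zinc finger gene, had between 0 and 6 reads.

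H19, the noncoding RNA made from the maternal copy beside Igf2, was the most abundant imprinted transcript per exon length, at 393 CPM per kilobase over the 8 libraries. It spans chromosome 7, positions 142575529 to 142578143 (ENSMUSG00000000031, minus strand). H19 stood at 951, 1234, 1076 and 1414 CPM in wild type and at 696, 634, 814 and 648 CPM in knockout. The groups did not overlap, with wild-type replicate 1 the nearest to the knockout libraries and knockout replicate 3 the nearest to wild type. The mean fell from 1169 ± 200.4 to 698 ± 82.0 CPM (SD, n = 4), a log2 fold change of -0.74 ± 0.14 (SE, edgeR adjusted p = 0.0369). The call ended without wild-type replicate 4 (adjusted p = 0.0797) or knockout replicate 1 (0.0911), 2 (0.127) or 4 (0.137).

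H19 is also the precursor of a microRNA, whose mature sequences are shown because the hairpin lies inside an exon of H19. Both are RefSeq sequence of GRCm38.p6 on the minus strand, with the seed (bases 2 to 8) in capitals. The 5p arm lies at chr7:142577112-142577133 and the 3p arm at chr7:142577078-142577099.
miR-675-5p: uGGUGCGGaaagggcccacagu
miR-675-3p: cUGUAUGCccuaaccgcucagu
Mir675 has a row of its own in the table and had 0 reads in all 8 libraries, so the hairpin's own level was not measured here.

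Igf2, which encodes the fetal growth factor insulin-like growth factor 2 and is made from the paternal copy, was far less abundant than H19, at 2.95 CPM per kilobase. Igf2 stood at 16.4, 14.6, 27.2 and 21.7 CPM in wild type and at 15.5, 12.6, 15.2 and 11.8 CPM in knockout. The groups overlapped, since wild-type replicate 2 lay among the knockout libraries. The log2 fold change was -0.53 ± 0.19 (SE) and did not pass the edgeR test (adjusted p = 0.168). Limma voom with quality weights called Igf2 lower (adjusted p = 0.0379). The fold change of Igf2 was not shown to differ from that of H19: the log2 ratio of Igf2 to H19 counts was -5.90 ± 0.46 in wild type and -5.66 ± 0.13 in knockout (SD, n = 4, exact permutation p = 0.371).

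**Figure D2:**
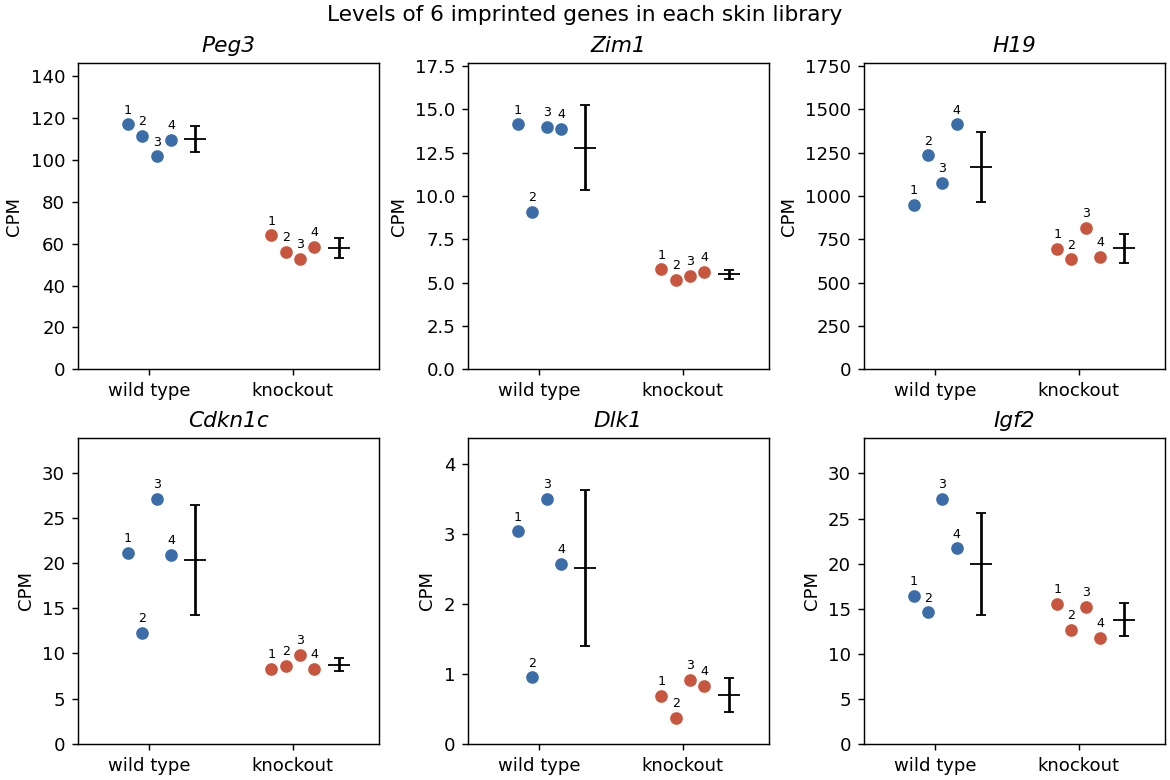
CPM (y axis, from 0) of Peg3, Zim1, H19, Cdkn1c, Dlk1 and Igf2 in each library by genotype (x axis), with replicate numbers over the points and the mean ± SD in black beside them. The points of the genotypes do not overlap for the first 5 genes, and those of Igf2 do.

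In the Kcnq1ot1 domain, Cdkn1c fell and the other 5 tested genes did not pass. Cdkn1c encodes p57, an inhibitor of cyclin-dependent kinases that restrains proliferation, and is made from the maternal copy (ENSMUSG00000037664, chromosome 7, positions 143458339 to 143461050, minus strand). It stood at 21.1, 12.3, 27.1 and 20.9 CPM in wild type and at 8.32, 8.62, 9.83 and 8.27 CPM in knockout. Knockout libraries were close together, while wild type ranged widely, with replicate 2 the lowest and replicate 3 the highest. The mean fell from 20.4 ± 6.09 to 8.76 ± 0.731 CPM (SD, n = 4), a log2 fold change of -1.22 ± 0.20 (SE, edgeR adjusted p = 0.0266). The call ended without wild-type replicate 1 (adjusted p = 0.0671) or 4 (0.0698) and without knockout replicate 1 (0.0777), 2 (0.102) or 4 (0.108). The antisense feature Gm44732 covers 30.7% of the exon bases of Cdkn1c and had 0 reads in every library.

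Kcnq1ot1 is the long paternal RNA that silences this domain in cis. It stood at 61.9, 50.4, 35.9 and 58.5 CPM in wild type and at 36.0, 37.0, 49.0 and 36.0 CPM in knockout. Wild-type replicate 3 was the lowest of all libraries, so every knockout library lay in the wild-type range. Knockout replicate 3 was the highest of its group. The log2 fold change of -0.39 ± 0.17 did not pass (edgeR adjusted p = 0.240). Without wild-type replicate 3 Kcnq1ot1 was called, at -0.52 (adjusted p = 0.0359). Limma voom with quality weights also called it (adjusted p = 0.0284), but that fit gave wild-type replicate 3 the lowest weight, 0.358. The limma voom call is therefore not independent of leaving that library out. The tetraspanin gene Cd81 was at 180.5 ± 35.2 and 167 ± 4.42 CPM. Ascl2, a transcription factor gene of the placenta, had a log2 fold change of -0.24 ± 0.19. The other 2 tested genes were Tssc4, at -0.25 ± 0.18, and the transporter gene Slc22a18, at 0.05 ± 0.13. Phlda2, a growth-restraining gene of the placenta, had 2 to 14 reads and was not tested.

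In the Dlk1/Meg3 domain of chromosome 12 none of the 5 genes passed, and all 5 had a log2 fold change below 0. Dlk1 encodes a Notch-like membrane protein of preadipocytes and other progenitors and is made from the paternal copy. It was near the limit of detection, at 3.03, 0.949, 3.497 and 2.57 CPM in wild type and 0.684, 0.375, 0.916 and 0.823 CPM in knockout. These levels rest on 105, 24, 83 and 65 reads in the wild-type libraries and on 26, 7, 22 and 22 in the knockout libraries. The groups did not overlap, but wild-type replicate 2 lay just above knockout replicate 3. Its difference of -1.82 ± 0.39 on the log2 scale (SE) missed the threshold narrowly in edgeR (adjusted p = 0.0507). Dlk1 passed in 7 of 15 alternative fits, with adjusted p between 0.000646 and 0.166. Without overlap between the genotypes were 7 members, 5 on the lower side (the 4 called genes and Dlk1) and 2 on the higher side. Over all genes the shares were 11.5%, 5.95% and 5.57%.

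The 3 maternal noncoding RNAs of the same domain shared a high knockout library. Meg3, the longest studied of them, stood at 213, 169, 239 and 149.6 CPM in wild type and at 122, 115, 196 and 136 CPM in knockout. Rian, which hosts small nucleolar RNAs, was at 135.5 ± 22.1 and 105.6 ± 23.7 CPM, and Mirg, which hosts microRNAs, at 6.23 ± 1.10 and 4.69 ± 1.20 CPM. Knockout replicate 3 was the highest knockout library for all 3 and lay inside the wild-type range. Their log2 fold changes were -0.44 ± 0.19, -0.36 ± 0.16 and -0.42 ± 0.20 in the order given, with edgeR adjusted p of 0.244, 0.256 and 0.289. Without knockout replicate 3 they were -0.63, -0.52 and -0.56, still not called. Rtl1, a retrotransposon-derived gene read from the opposite strand, was at -0.56 ± 0.30. Of 60 microRNA genes of this domain with a row in the table, 19 had any read, with 68 reads in all 8 libraries together.

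No gene of the Mest, Nnat or Igf2r domains passed, and their largest differences pointed upward. Mest, a hydrolase gene that is active in expanding fat and is made from the paternal copy, stood at 5.81, 3.04, 5.86 and 4.87 CPM in wild type and at 7.89, 8.30, 4.83 and 8.00 CPM in knockout. Knockout replicate 3 lay among the wild-type libraries, and the log2 fold change of 0.57 ± 0.23 did not pass (edgeR adjusted p = 0.216). Its neighbours were Copg2, a coat protein gene, at 0.06 ± 0.09 and Klf14, a transcription factor gene that is expressed in fat, at 0.58 ± 0.46. Mest and Copg2 overlap tail to tail on opposite strands, over 23.1% and 17.8% of their exon bases.

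Nnat, which encodes a small membrane protein of the endoplasmic reticulum and is made from the paternal copy, stood at 38.8, 13.6, 15.1 and 23.1 CPM in wild type. In knockout it stood at 34.7, 58.2, 23.7 and 42.0 CPM. The groups overlapped and the spread was wide, with a log2 fold change of 0.80 ± 0.37 (edgeR adjusted p = 0.279). Blcap, the gene that holds Nnat in its intron, had a log2 fold change of -0.02 ± 0.10.

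In the Igf2r domain, the organic cation transporter gene Slc22a3 was at 9.33, 11.3, 13.1 and 8.83 CPM in wild type and at 21.5, 20.3, 11.2 and 20.4 CPM in knockout. Knockout replicate 3 alone lay in the wild-type range. The log2 fold change was 0.79 ± 0.21 (SE, edgeR adjusted p = 0.0825), and Slc22a3 was called without knockout replicate 3 (adjusted p = 0.0234) or without wild-type replicate 3 (0.0402). With all 8 libraries it was called higher by DESeq2 (adjusted p = 0.00684) and by limma voom with quality weights (adjusted p = 0.0252). Igf2r, which encodes the receptor that clears insulin-like growth factor 2, stood at 85.1, 69.0, 109 and 76.3 CPM in wild type and at 81.1, 78.2, 77.1 and 88.8 CPM in knockout, a log2 fold change of -0.06 ± 0.13. Airn, the paternal antisense RNA that silences Igf2r, was at -0.14 ± 0.31.

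White adipocyte marker levels differed among the same libraries. Their summed level ran from 4980 to 8911 CPM in wild type and from 7164 to 9252 CPM in knockout. Of 15 markers all were tested, 14 lay above 0, 1 was called higher (Ghr) and none was called lower. Over all genes tested, 8918 lay above 0 and 10181 below, with 0.712% called higher and 0.702% called lower. Wild-type replicate 3 had the highest mean of its group, at 8.08 on the log2(CPM + 1) scale, and knockout replicate 3 the lowest, at 7.84. In wild-type replicate 3 and knockout replicate 3, Slc22a3 was at 13.1 and 11.2 CPM and Mest at 5.86 and 4.83 CPM. In the same 2 libraries Nnat was at 15.1 and 23.7 CPM and Peg3 at 102 and 52.7 CPM. With the marker mean as a covariate, 0% of all genes tested were called and no member was. The log2 fold change was then -0.91 for Peg3, -1.46 for Zim1, -1.62 for Cdkn1c and -0.48 for H19, with adjusted p of 0.0826, 0.0826, 0.0846 and 0.397. For Slc22a3 it was 0.26 and for Mest -0.12. The marker mean was higher in most knockout than in most wild-type libraries, so this fit cannot separate marker level from genotype.

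**Figure D3:**
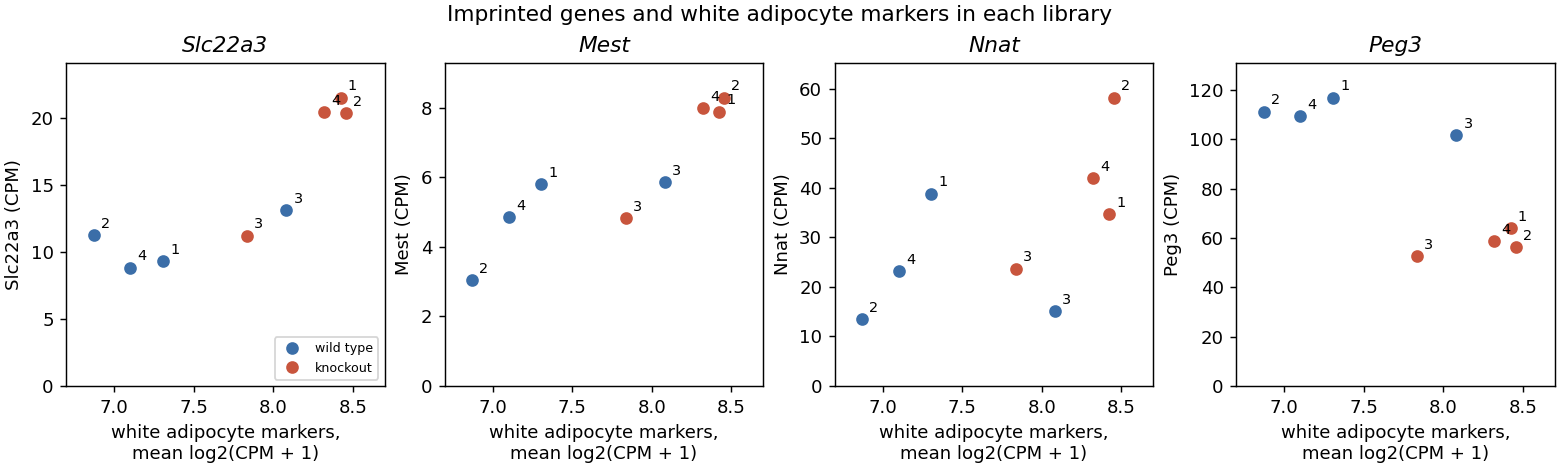
CPM of Slc22a3, Mest, Nnat and Peg3 (y axes, from 0) against the mean log2(CPM + 1) of 15 white adipocyte markers (x axes) in each library, with replicate numbers beside the points. Wild-type replicate 3 (8.08) and knockout replicate 3 (7.84) are the highest and the lowest of their genotypes on the x axis.

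Markers of other cell types were called singly or not at all, where 0.712% of all genes were called higher and 0.702% lower. Over all genes tested, 8918 lay above 0 and 10181 below. T cell markers were below 0 in 7 of 7 cases (median -0.73), with 1 called lower (Cd2). Their summed level was 46.1 to 60.0 CPM in wild type and 24.7 to 41.7 CPM in knockout. Adipocyte progenitor markers, the cells known for Dlk1, lay above 0 in 7 of 9 cases with 1 called higher (Zfp423). Their summed level was 1630 to 2177 CPM in wild type and 2068 to 2404 CPM in knockout. This list shares Fabp4 with the white adipocyte list and Pdgfra with the fibroblast list, so it is not specific to progenitors. Macrophage markers had 1 of 8 called higher (Mrc1) and melanocyte markers 1 of 7 called lower (Mlana). Keratinocyte markers lay below 0 in 8 of 8 cases (median -0.12), endothelial markers in 7 of 8 (median -0.24) and Schwann cell markers in 7 of 8 (median -0.25), with 0 called in each. Their summed levels in wild type and knockout were 10241 to 11089.9 and 8896 to 10584 CPM, 285 to 444 and 314 to 362 CPM, and 383 to 839.8 and 509 to 687 CPM, in that order. Hair follicle bulge markers lay below 0 in 6 of 7 cases (median -0.41) with 0 called, at 2948 to 4329 and 3066 to 3270 CPM. Smooth muscle and pericyte markers lay above 0 in 6 of 8 cases with 0 called. Their summed level did not overlap, at 1367 to 1550 CPM in wild type and 1561 to 1833 CPM in knockout. Skeletal muscle markers lay above 0 in 8 of 10 cases and sebaceous gland markers in 4 of 7, with 0 called in each. Fibroblast markers (23375 to 37270 CPM in wild type, 25850 to 37532 CPM in knockout) had 0 called of 10. Markers of satellite cells and regenerating muscle, where H19, Igf2 and Cdkn1c are known to be active, had 0 called of 7, at 91.8 to 153 and 93.6 to 131 CPM. The part of these cell types in the changes of the imprinted genes was not tested, and the marker covariates do not measure it. With the mean of the anagen hair matrix and dermal papilla markers as a covariate, Peg3, Zim1, H19, Cdkn1c and Dlk1 were called, where 3.07% of all genes were.

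In the Peg13 domain of chromosome 15, both tested genes were slightly higher in knockout and neither was called. Peg13, a paternal noncoding RNA inside an intron of Trappc9, stood at 47.9, 39.8, 44.5 and 42.4 CPM in wild type and at 50.9, 49.7, 51.3 and 52.8 CPM in knockout. Trappc9, which encodes a subunit of a vesicle tethering complex, stood at 31.3, 28.1, 36.4 and 32.8 CPM in wild type and at 40.2, 37.9, 37.2 and 43.2 CPM in knockout. Every knockout library was higher than every wild-type library for both genes, by a narrow margin. The same held for 5.57% of all genes tested. Neither Peg13 nor Trappc9 passed the edgeR test, with log2 fold changes of 0.23 ± 0.08 (adjusted p = 0.157) and 0.30 ± 0.10 (adjusted p = 0.137).

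In the Snrpn domain of chromosome 7, none of the 5 tested genes passed. Snrpn, which encodes a spliceosome protein of brain and heart, stood at 4.94, 5.46, 4.76 and 5.98 CPM in wild type and at 5.29, 4.50, 4.87 and 5.65 CPM in knockout. Its exons share 27.3% of their bases with Gm38393 and Snurf on the same strand. Ndn, a MAGE family gene that is active in neurons and fat progenitors, stood at 42.7, 25.1, 24.0 and 38.1 CPM in wild type and at 31.6, 33.5, 35.5 and 31.9 CPM in knockout. Both genes overlapped between genotypes. Mkrn3, a RING finger gene known for its part in the timing of puberty, had a log2 fold change of -0.48 ± 0.19 (edgeR adjusted p = 0.203). Ube3a, a ubiquitin ligase gene that is imprinted in neurons, was at -0.10 ± 0.12, and Peg12, a Frat family gene, at 0.13 ± 0.20. Magel2, a MAGE family gene of the hypothalamus, had at most 2 reads in any library and was not tested.

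In the Peg10 domain of chromosome 6, no member passed. Sgce, which encodes epsilon-sarcoglycan, was the steadiest, at 36.9, 39.2, 37.0 and 36.3 CPM in wild type and 36.8, 41.5, 40.1 and 38.0 CPM in knockout. Peg10, a retrotransposon-derived gene read from the same promoter region in the other direction, was variable, at 7.86, 1.94, 3.24 and 6.85 CPM in wild type and 4.26, 8.40, 7.41 and 8.04 CPM in knockout. Wild-type replicates 2 and 3 were low for Peg10, and its log2 fold change was 0.48 ± 0.40 (edgeR adjusted p = 0.538). The remaining 4 genes ran from Tfpi2, a protease inhibitor gene, at -0.56 ± 0.30 to Asb4, a ubiquitin ligase adaptor gene, at 0.35 ± 0.23. Between them lay Calcr, the calcitonin receptor gene, at -0.13 ± 0.39 and Ppp1r9a, which encodes the actin-binding protein neurabin, at 0.10 ± 0.16.

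The growth-signalling genes Grb10 and Plagl1 did not pass. Grb10, an adaptor that damps insulin receptor signalling, stood at 151, 82.6, 128 and 157 CPM in wild type and at 113, 120.3, 139.5 and 128 CPM in knockout. Its wild-type libraries enclosed all knockout libraries, and its neighbour Ddc, an amine synthesis gene, was at -0.37 ± 0.32. Plagl1, a zinc finger factor that is known to act on other imprinted genes, stood at 36.8, 25.7, 28.4 and 40.9 CPM in wild type and at 23.0, 28.0, 27.1 and 29.2 CPM in knockout, a log2 fold change of -0.30 ± 0.15 (edgeR adjusted p = 0.301). Wild-type replicates 1 and 4 were high for both Grb10 and Plagl1.

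Gnas, the gene of the stimulatory G protein alpha subunit with imprinted and biallelic promoters, stood at 12.2, 11.7, 12.4 and 10.3 CPM in wild type and at 11.5, 13.9, 11.5 and 13.5 CPM in knockout. Its log2 fold change was 0.11 ± 0.11. Whether reads of Gnas were dropped as ambiguous or multiply aligned cannot be told from the table, so the true level may be higher than these values. The antisense features Gm20721 and Nespas cover 22.0% of its exon bases and had at most 4 reads each in any library. The sources used here do not say how reads in such overlaps were assigned.

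Imprinted genes that stand alone or arose as retrogenes inside another gene did not pass the test. Impact, a regulator of translation under stress, stood at 75.8, 82.9, 65.5 and 78.2 CPM in wild type and at 61.6, 74.6, 82.4 and 77.4 CPM in knockout. Zrsr1, a splicing factor retrogene in an intron of Commd1, stood at 17.4, 18.1, 15.2 and 16.5 CPM in wild type and at 17.2, 15.04, 15.5 and 14.9 CPM in knockout. The log2 fold changes were -0.03 ± 0.10 for Impact, -0.10 ± 0.10 for Zrsr1 and -0.25 ± 0.15 for Commd1. Inpp5f, a phosphatase gene with an imprinted isoform in brain, stood at 42.7, 52.2, 50.6 and 42.9 CPM in wild type and at 48.4, 41.9, 48.6 and 42.7 CPM in knockout. Nap1l5, a low nucleosome assembly retrogene, stood at 0.693, 1.34, 1.18 and 0.831 CPM in wild type and at 1.58, 1.02, 1.08 and 0.860 CPM in knockout. Mcts2, a retrogene inside the signal peptide peptidase gene H13, was at -0.25 ± 0.15, and H13 itself at -0.01 ± 0.10. Reads of a retrogene can be shared with its parent gene, so these levels carry an uncertainty of assignment.

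Per kilobase of exon, the members spanned more than 3 orders of magnitude. After H19 came Cd81 at 60.4, Impact at 21.8, Copg2 at 17.9, Nnat at 17.0 and Blcap at 15.8 CPM per kilobase. From Impact down to Grb10 at 14.0, neighbours in this order overlapped across libraries. Of the called genes, Cdkn1c was at 7.14, Peg3 at 6.30 and Zim1 at 1.13 CPM per kilobase. Dlk1, at 0.284, and Calcr, at 0.0988, were near the low end of the genes tested.

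**Figure D4:**
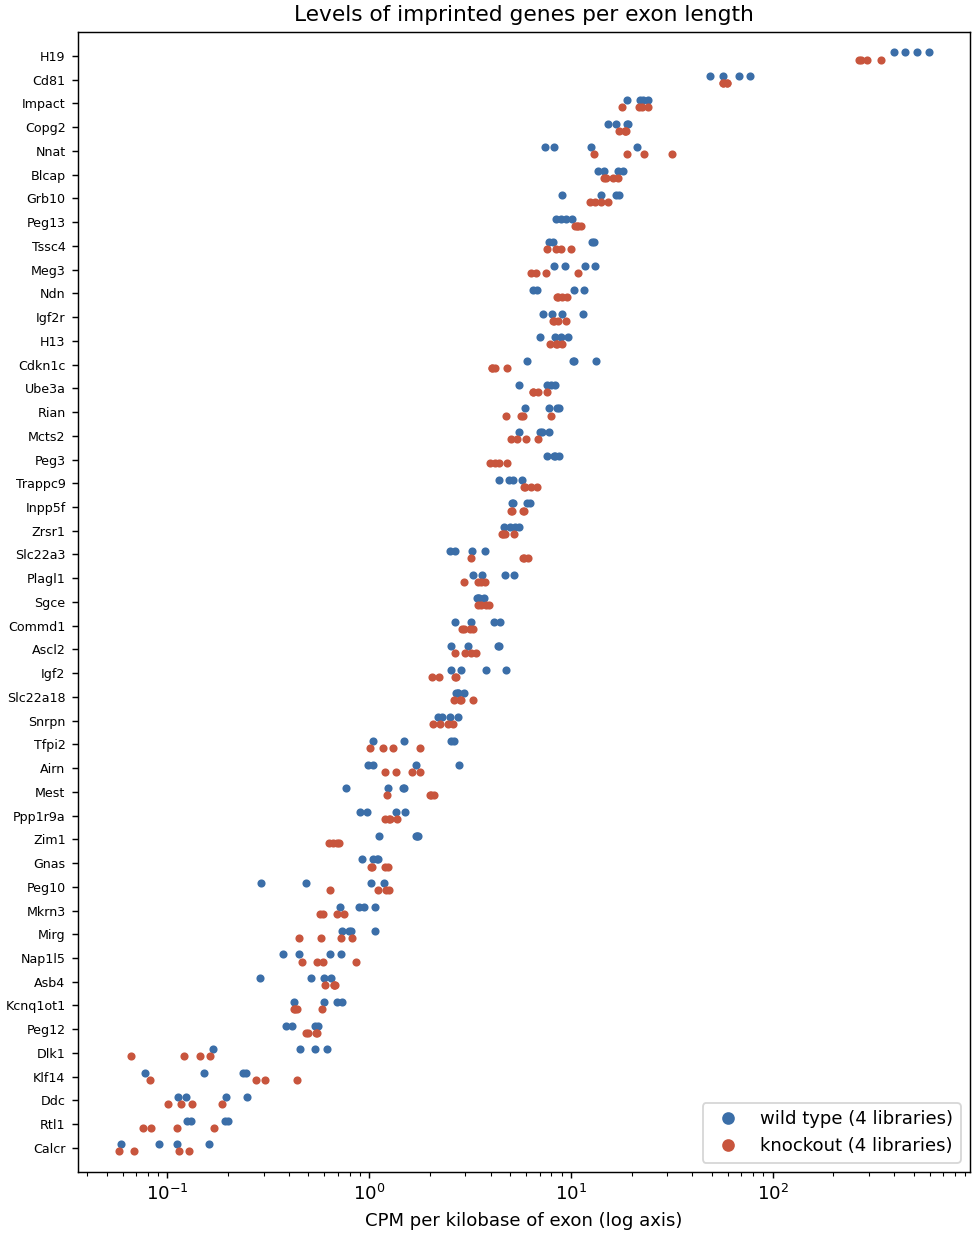
CPM per kilobase of exon (x axis, log scale) of the 47 tested imprinted genes, ordered by their mean over the 8 libraries, with a point per library in the colour of its genotype. H19 lies apart at the top at a mean of 393, and the knockout points of Peg3, Zim1, Cdkn1c and H19 lie to the left of their wild-type points.

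Within a domain, a gene listed as paternal was set against a gene listed as maternal, in the 12 domains that had both. The log2 ratio used the most abundant tested gene of each kind. These are ratios of gene totals and do not measure allelic use, and Ube3a, paired with Ndn, is imprinted in neurons. In the Kcnq1ot1 domain the maternal gene was Cd81 and not the called gene Cdkn1c. The largest difference was for Dlk1 over Meg3, from -6.38 ± 0.72 in wild type to -7.66 ± 0.37 in knockout (SD, n = 4, exact permutation p = 0.0857). The ratio of Peg3 to Zim1 was 3.13 ± 0.33 in wild type and 3.40 ± 0.08 in knockout (SD, n = 4, exact permutation p = 0.143). That of Mest to Copg2 was -4.23 ± 0.53 and -3.72 ± 0.31 (SD, n = 4, exact permutation p = 0.114). None of the 12 passed, with Benjamini-Hochberg adjusted p of at least 0.514. With 4 libraries a group the smallest p is 0.0286, so a single ratio could not have passed this adjustment.

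Around the members, 3 further lists were read from the same fit. Of 50 other genes known as imprinted in some mouse tissue, 40 were tested and 1 was called, where 1.41% of all genes were. Of the 40, 10 were higher and 1 lower at an unadjusted p under 0.05, where 8.64% and 10.9% of all genes were. Without overlap between the genotypes were 5 on the higher side and 1 on the lower side, where 5.57% and 5.95% of all genes were. The called gene was Ampd3, a purine enzyme gene. It rose from 36.6 ± 1.73 to 47.5 ± 1.99 CPM (SD, n = 4), a log2 fold change of 0.38 ± 0.07 (SE, edgeR adjusted p = 0.0441). When wild-type replicate 1, wild-type replicate 4 or any of the 4 knockout libraries was left out, 0 genes of this list were called. With no low count filter the single call was Gpr1 and not Ampd3. Without wild-type replicate 3 there were 8 calls, where 6.82% of all genes were called. The list had 23 genes above and 17 below 0, with a median of 0.08. Over all genes tested, 8918 lay above and 10181 below 0, with a median of -0.02.

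Factors that set, keep or read imprints gave no call. Of 25 listed, 22 were tested, with 0 called by edgeR. At an unadjusted p under 0.05, 3 of 22 were higher and 0 lower, where 8.64% and 10.9% of all genes were. The 3 with the smallest p were Uhrf1, a partner of the maintenance methyltransferase, at 0.53 ± 0.16, the silencing factor Smchd1 at 0.21 ± 0.08 and Dnmt1, the maintenance methyltransferase itself, at 0.27 ± 0.10. DESeq2 called 1 (Uhrf1) and limma voom 1 (Smchd1), where 6.0% and 13.3% of all genes were called. The median of the list was 0.01.

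Among genes around the insulin-like growth factors, 3 of 14 tested were called, all lower, where 0.702% of all genes were called lower. This list was chosen with earlier results of these data known. Igfbp3, a circulating binding protein of these factors, stood at 359, 250.04, 323 and 324 CPM in wild type and at 215, 157, 179 and 159 CPM in knockout. Every knockout library lay below every wild-type library, and the mean fell by 0.82 ± 0.13 on the log2 scale (SE, edgeR adjusted p = 0.0231). Igfbp2, a related binding protein gene, fell from 46.6 ± 5.78 to 31.9 ± 2.14 CPM. Hmga2, a chromatin gene of growing tissue, fell from 1.11 ± 0.286 to 0.371 ± 0.110 CPM, on 4 to 47 reads per library. The count was 0 when wild-type replicate 1, wild-type replicate 4, knockout replicate 2 or knockout replicate 4 was left out, and it was 1 (Igfbp3) without knockout replicate 1 or 3. Irs1, an adaptor of the insulin receptor, had a log2 fold change of 0.64 ± 0.15 and did not pass in edgeR (adjusted p = 0.0671). Irs1 was called higher with no low count filter, with DESeq2, with limma voom and without wild-type replicate 3, for 4 called genes in each. In the last 3 of these fits 6.0%, 13.3% and 6.82% of all genes were called, in that order. Igf1 was at 0.26 ± 0.15.

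The count of called members moved with the libraries used. It was 1 (Peg3) without knockout replicate 2 or 4, when 0.0566% and 0.0775% of all genes were called. It was 2 (Peg3 and Zim1) without knockout replicate 1 or wild-type replicate 4, at shares of 0.397% and 0.32%. Without wild-type replicate 1 it was 3 (Peg3, Zim1 and H19), at 0.327%. The count was 5 without wild-type replicate 2 (2.6% of all genes) or knockout replicate 3 (0.663%). It was 8 without wild-type replicate 3, with Dlk1, Kcnq1ot1, Slc22a3 and Trappc9 added, where 6.82% of all genes were called. With limma voom and quality weights 10 members were called, where the share over all genes was 13.3%. The additions were Dlk1, Igf2, Kcnq1ot1 and Commd1 on the lower side and Slc22a3 and Trappc9 on the higher side. That fit weighted wild-type replicates 2 and 3 at 0.399 and 0.358, and knockout replicates 2 and 4 at 2.13 and 2.19. The log2 fold changes of Peg3, Zim1, H19 and Cdkn1c kept their direction in all 64 alternative values.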

How the data were processed

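The authors deposited raw read counts per gene, aligned with GSNAP to mm10 and counted with featureCounts 1.6.2, per the submitters' processing notes. Strand and multiple-alignment settings could not be taken from the sources used here. The design text names a SMART protocol while the sample labels name a directional kit, so no strandedness was assumed. The table's 92 spike-in rows (at most 1 read) were left out. Exon lengths are the deposited Length column, per the file headers, and symbols came from GENCODE M21 (49326 of 49671 identifiers). All 8 libraries were fitted with edgeR 4.0.16 in R 4.3.3 (filterByExpr, TMM factors, robust quasi-likelihood test, genotype as the only term, Benjamini-Hochberg adjustment), with a common biological coefficient of variation of 15.9%. DESeq2 1.42.0, limma 3.58.1 and the other alternatives are given in the closing section. Members and lists were chosen with earlier results of these data known. Values per library are given for called genes, genes without overlap and the lead transcript of each domain, and for Slc22a3 and Igfbp3, added after their values were seen. In other lists, called genes or the 3 with the smallest p are named, and Igf1 and Irs1 were added likewise. Ratios within a domain used counts plus 0.5 and were chosen after the data were seen.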

Additional observations from a re-analysis of the deposited data

Results flagged for a closer look

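Among 94 groups of 4 libraries (47 genes in each genotype), 5 held a library far from the other 3, as chance gives in about 1 of 20 groups. Zim1 was at 9.09 CPM in wild-type replicate 2, against 13.9 to 14.1 CPM in the other wild-type libraries. The other 4 cases were all in knockout replicate 3. There Kcnq1ot1 was at 49.0 CPM against 36.0 to 37.0 CPM, Mest at 4.83 CPM against 7.89 to 8.30 CPM, Slc22a3 at 11.2 CPM against 20.3 to 21.5 CPM and Asb4 at 2.37 CPM against 2.62 to 2.66 CPM.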

How the results depend on the processing

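No paired analysis was possible because the labels give no replicate numbers. The 4 called members were Peg3, Zim1, H19 and Cdkn1c, and with limma voom with quality weights 10 members were called, against 0 with the adipocyte marker covariate. Leaving out 1 library gave between 1 and 8. Over all genes the 270 calls became 502 with no low count filter, 1142 with DESeq2, 2535 with limma voom, 587 with the hair matrix covariate and 0 with the adipocyte covariate, and between 11 and 1325 without 1 library. For the other imprinted genes the counts were 4 with DESeq2, 10 with limma voom, 2 with the hair matrix covariate, 0 with the adipocyte covariate and between 0 and 8 without 1 library. With no low count filter the list's 1 call was Gpr1 in place of Ampd3. For the imprint maintenance list they were 1 with DESeq2 and 1 with limma voom, and for the insulin-like growth factor list 0 with the adipocyte covariate, 4 with DESeq2, limma voom or no low count filter and between 0 and 4 without 1 library. Flg was at -1.33 with the adipocyte covariate and no longer called (adjusted p = 0.0826). The cause of these differences was not tested.

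No called member changed sign. Of 746 alternative log2 fold changes of members, 47 did, in 23 uncalled genes and by values of at most 0.31. With the adipocyte covariate these were Kcnq1ot1 at 0.14, Slc22a18 at -0.025, Mest at -0.12, Copg2 at -0.031, Klf14 at -0.22, Blcap at 0.078, Gnas at -0.042, Ddc at 0.24, Airn at 0.14, Ppp1r9a at -0.046, Snrpn at 0.089, Ube3a at 0.31, Impact at 0.25, Zrsr1 at 0.020 and Commd1 at 0.085. With the hair matrix covariate they were Blcap at 0.0096, Grb10 at 0.059 and H13 at 0.032. With limma voom they were Igf2r at 0.016, Airn at 0.28 and Ndn at -0.12. H13 was at 0.0033 with RLE size factors and at 0.0063 with DESeq2. Without 1 library the ranges crossed 0 for Airn (-0.32 to 0.26), Blcap (-0.080 to 0.052), Calcr (-0.36 to 0.15), Cd81 (-0.21 to 0.0044), Grb10 (-0.21 to 0.053), H13 (-0.090 to 0.059), Igf2r (-0.14 to 0.090), Impact (-0.088 to 0.049), Inpp5f (-0.096 to 0.0027), Nap1l5 (-0.026 to 0.38), Ndn (-0.084 to 0.19), Ppp1r9a (-0.011 to 0.25), Slc22a18 (-0.0080 to 0.097) and Snrpn (-0.11 to 0.011). Low depth limits Dlk1, Klf14, Ddc, Rtl1 and Calcr most. These 5 were not tested under the stricter filter, so that alternative gave no value for them, and DESeq2 gave Calcr no adjusted p.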
